A study of Homo sapiens with 18 samples.

Results

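The genes described here are 37 targets and regulators of ATF4 and of the unfolded protein response, measured in A549 cells exposed to Ludox silica nanoparticles (NPs). Probes were taken by name: a probe belonged to the set when its gene name in the scanner files was one of the 37 symbols. The symbols themselves were chosen with earlier results of these data known, so the shares called below describe a chosen set. The set held 25 genes of the ATF4 arm, 9 genes of the chaperone arm and 3 sensors, with 56 probes among 41000 on the array. All 56 probes were kept among the 28665 probes that had values on enough arrays. Each gene was read by its brightest kept probe, as were the 21028 gene names used for comparison, and for all 37 genes that probe lay well above background on all 18 arrays.

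A549 is an established human lung adenocarcinoma line, so every group was a culture of the same transformed epithelial cells and none held normal lung. The study compared 6 groups of 3 arrays, lettered A, B and C. Cells were exposed for 2 h in medium without serum to SM30 (9 nm diameter) or AS30 (18 nm diameter) NPs at the single dose the study took for its arrays, and then recovered in complete medium. RNA was taken after 3 h of recovery from SM30 cells, and after 3 h or 22 h from AS30 cells. Each exposure had its own control cultures, which went through the same serum-free step and recovery without particles. No SM30 samples at 22 h were analysed here. Markers were read for cell type and cannot identify the line: 4 of 4 epithelial genes (KRT8, KRT18, KRT19 and CDH1) lay well above background on all 18 arrays. Of 5 fibroblast and endothelial genes, COL3A1 and PECAM1 did so on 0 arrays. Among other marker genes, COL1A1, CD14, CD68 and 1 CD3E probe also lay well above background on all 18 arrays. A total RNA measurement cannot tell fewer cells that express a gene from less RNA of it in each cell.

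The arrays sat on 5 slides, and the slides were not balanced. The SM30 controls and SM30 replicate A shared a slide, and SM30 replicates B and C lay on another. The 3 AS30 arrays at 3 h shared a slide, and their 3 controls shared a different one. The 3 AS30 arrays at 22 h shared a slide with control C, while controls A and B lay on the control slide and on the exposed slide of the 3 h series. The share of probes well above background ran from 65.5% to 72.4% on the SM30 arrays and their controls, and from 51.9% to 67.1% on the 12 AS30 arrays and their controls. It differed between AS30 arrays and their controls: at 3 h it was 62.5% to 67.1% on the AS30 arrays, above the 52.4% to 61.9% of their controls. At 22 h it was 56.9% to 67.0% against 51.9% to 58.4%, ranges that overlap. Exposure and slide cannot be told apart at 3 h, where exposed and control arrays shared no slide. The part of this shift in the results was not tested.

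ATF4 is a transcription factor whose mRNA is translated better when the initiation factor eIF2alpha is phosphorylated by one of its kinases, so that its activity can rise without a change in its transcript. It acts on genes for amino acid synthesis and uptake, on tRNA synthetases, and on further factors such as CHOP, the product of DDIT3. The unfolded protein response is started by 3 sensors in the membrane of the endoplasmic reticulum (ER). PERK (EIF2AK3) leads to ATF4, whereas IRE1 (ERN1), which splices XBP1 mRNA, and ATF6 raise ER chaperones and the machinery that removes misfolded proteins. Many ATF4 targets hold a C/EBP-ATF response element, and many chaperone genes an ER stress element.

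Both elements were searched in the promoters of the set, from 250 bases before to 50 bases after each start site given by RefSeq (GRCh38.p14), on either strand. For the C/EBP-ATF response element the letters were TGATGNAA, and for the ER stress element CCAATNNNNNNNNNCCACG, where N is any base. The motifs share no stretch and were counted separately. Promoters were given for 34 of the 37 genes, and PSPH, SHMT2 and SARS are named only. The C/EBP-ATF response element was found in 9 of 22 ATF4 arm genes (40.9%), 1 of 9 chaperone arm genes and 0 of 3 sensors, and in 4.46% of the 27305 genes in the promoter table. The ER stress element was found in 3 of 9 chaperone arm genes (33.3%), 0 of 22 ATF4 arm genes and 0 of 3 sensors, and in 0.0916% of the genes in the table. The choice of members did not use promoter sequence, but the letters came from the known biology of these genes, and a match says nothing about binding.

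The following stretches hold the matches that lie wholly before the first start site, printed in the direction of the gene with 16 bases on either side and the matched letters in capitals, since they show how each arm's element looks in the genes that hold it. CHAC1, AARS and HERPUD1 carry the first element on the opposite strand, and HSP90B1 carries the second element on both strands.
CHAC1 (chr15:40953246-40953285, plus strand): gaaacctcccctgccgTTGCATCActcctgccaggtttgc
ASNS (chr7:97872453-97872492, minus strand): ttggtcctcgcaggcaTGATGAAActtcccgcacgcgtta
AARS (chr16:70289670-70289709, minus strand): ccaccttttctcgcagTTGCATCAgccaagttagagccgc
HERPUD1 (chr16:56931950-56931989, plus strand): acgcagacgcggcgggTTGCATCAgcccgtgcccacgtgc
XBP1 (chr22:28800587-28800637, minus strand): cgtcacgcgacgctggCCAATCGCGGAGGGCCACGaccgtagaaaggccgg
HSPA5 (chr9:125241375-125241425, minus strand): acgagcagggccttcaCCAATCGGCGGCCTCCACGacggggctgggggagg
HSP90B1 (chr12:103930200-103930355, plus strand): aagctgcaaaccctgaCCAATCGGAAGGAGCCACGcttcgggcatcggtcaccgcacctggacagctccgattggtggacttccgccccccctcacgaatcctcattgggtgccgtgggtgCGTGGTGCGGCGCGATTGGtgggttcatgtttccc
The ATF4 arm genes CEBPG, SLC3A2, SLC7A1, CARS, GARS and NARS held the C/EBP-ATF response element at or after a start site, or before a start site that lies inside a longer transcript.

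The first question was which of these genes moved 3 h after exposure to the smaller particles. In SM30 cells 6 genes rose and 1 fell, and most of the rises were in stress regulators. TRIB3, a pseudokinase that restrains ATF4 signalling, was 2.86-fold its control, DDIT3 2.46-fold, PPP1R15A 2.36-fold, CEBPB 2.20-fold, DNAJB9 1.79-fold and SLC38A2 1.74-fold. SLC7A5, the light chain of the large neutral amino acid exchanger, fell to 0.606 of its control. These 7 of 37 genes (18.9%) passed the test, which was an adjusted p under 0.05 over all probes in limma on the 3 ratios of exposed over control arrays of the same letter, against 7.67% of the 21027 genes tested (4.24% higher and 3.43% lower). At an unadjusted p under 0.05 there were 18 of the 37, against 25.4% of all genes tested.

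The values on the arrays are log2 normalized intensities, given in the order of replicates A, B and C. TRIB3 read 15.04, 15.16 and 15.54 in the controls and 16.70, 16.71 and 16.88 after SM30. All exposed arrays lay above all controls, the mean log2 ratio was 1.51 (SE 0.21, n = 3) and the adjusted p was 0.0070. A second TRIB3 probe also passed, with a log2 ratio of 2.01. DDIT3, which encodes the factor CHOP, read 6.91, 6.68 and 6.79 in the controls and 8.13, 8.16 and 7.99 after SM30. Its mean log2 ratio was 1.30 (SE 0.29, adjusted p = 0.033), with no overlap between the groups. CEBPB, a bZIP factor that pairs with ATF4, read 14.84, 15.02 and 15.16 in the controls and 16.14, 16.20 and 16.08 after SM30. Its log2 ratio was 1.14 (SE 0.19, adjusted p = 0.013), and a second, dimmer probe missed the threshold at an adjusted p of 0.052.

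PPP1R15A encodes GADD34, the stress-induced subunit that brings a phosphatase to eIF2alpha. It read 10.52, 10.67 and 10.64 in the controls and 11.81, 11.95 and 11.78 after SM30, without overlap, and its log2 ratio of 1.24 (SE 0.29) passed at an adjusted p of 0.038. SLC38A2, a transporter of small neutral amino acids, read 12.90, 12.99 and 13.17 in the controls and 13.99, 13.71 and 13.75 after SM30. Its log2 ratio was 0.80 (SE 0.13, adjusted p = 0.0100), and a second probe passed too at 1.20. SLC7A5 read 15.15, 15.14 and 15.00 in the controls and 14.27, 14.35 and 14.50 after SM30, so that the 2 transporters moved in opposite directions. The log2 ratio of SLC7A5 was -0.72 (SE 0.13, adjusted p = 0.015), and its second probe, at -2.20, did not pass.

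In the chaperone arm DNAJB9 (ERdj4), a co-chaperone of BiP, was the gene that passed. It read 10.72, 10.68 and 10.85 in the controls and 11.62, 11.54 and 11.60 after SM30. All 3 exposed arrays lay above the controls, with a log2 ratio of 0.84 (SE 0.15, adjusted p = 0.016).

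Most other members stayed within the error of the test. ATF4 itself had a log2 ratio of 0.21 (95% interval -0.03 to 0.44, adjusted p = 0.25), with all exposed arrays above all controls. The 6 genes of serine, asparagine and one-carbon synthesis lay between -0.48 and -0.03 and 0 of 6 passed by their brightest probe, while a second PSPH probe passed at -0.49 (adjusted p = 0.038) beside the brightest probe's -0.48 (adjusted p = 0.074). Of the tRNA synthetases 0 of 6 passed. The GARS value of 0.82 rested on pair B, whose ratio was 2.10 against -0.22 and 0.57 in pairs A and C. NARS had no value on SM30 replicate C, and its control C read 8.30 against 12.61 and 12.50 on the other two, so its fit used 2 pairs.

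HSPA5, which encodes BiP, a major ER chaperone, had a log2 ratio of -0.91 (SE 0.38, adjusted p = 0.19). That value rested on pair B as well, at -2.38 against -0.07 and -0.27. A second HSPA5 probe was at -0.42 (adjusted p = 0.19). The ER chaperone gene HSP90B1 was at -0.31, and PDIA4, a disulfide isomerase, was at -0.02. Among the genes of ER-associated degradation, HERPUD1 was at 0.59 (adjusted p = 0.12) with all exposed arrays above the controls, EDEM1 at 0.26 and SEL1L at -0.02. EIF2AK3, which encodes PERK, had the highest ratio of the sensors, 0.82 (SE 0.24, adjusted p = 0.074), also without overlap between the groups. ERN1 was at 0.29 by its brightest probe, which was designed for another transcript than that of IRE1, and ATF6 was at -0.01 from 2 pairs.

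**Figure D1:**
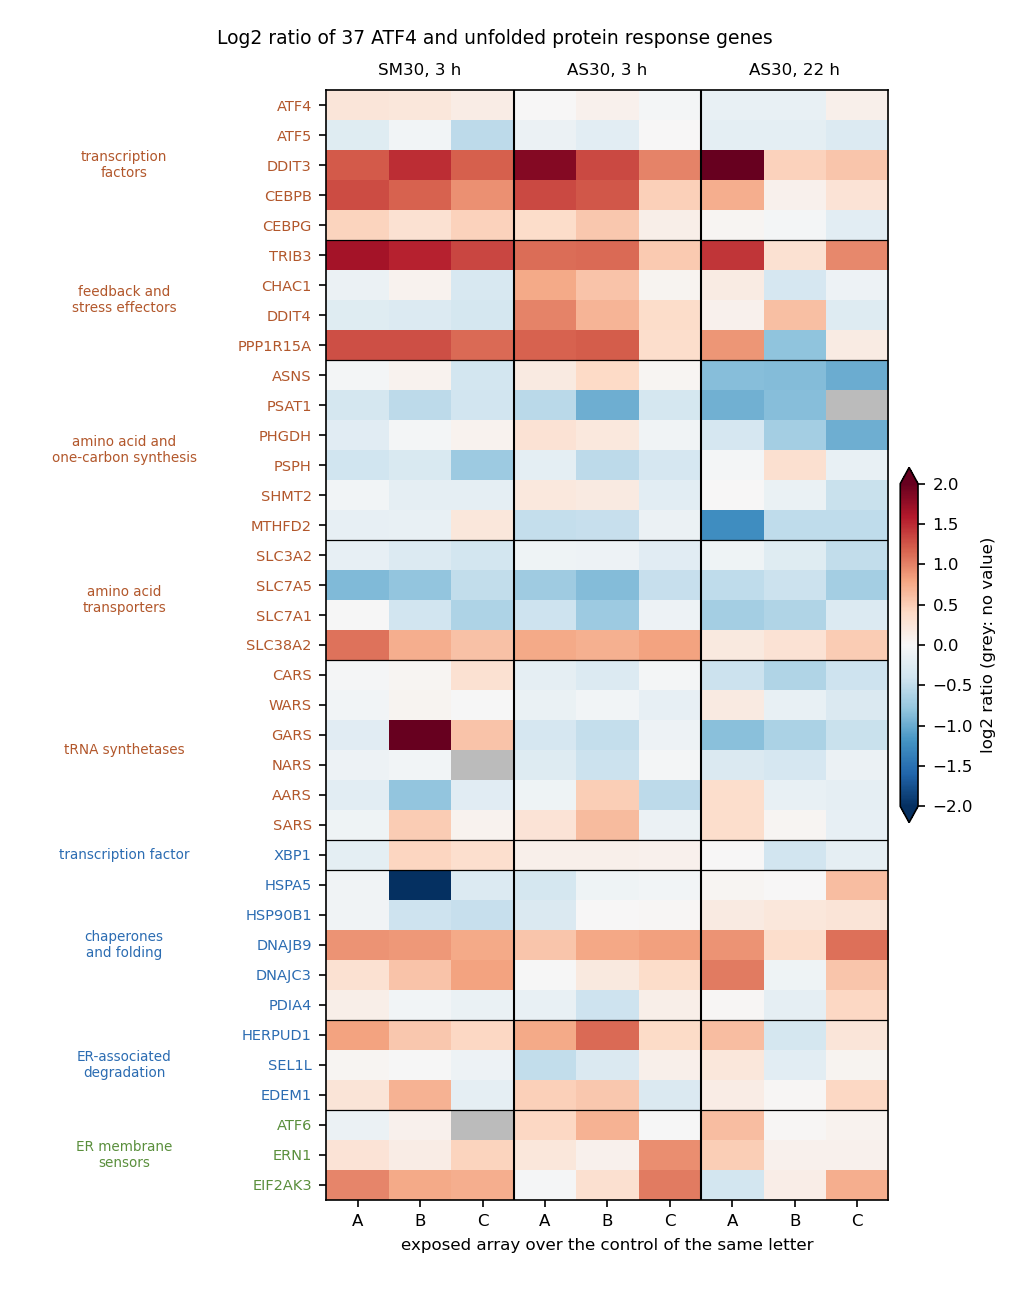
Log2 ratio of each exposed array over its control of the same letter (columns, 3 per exposure) for the 37 genes (rows), grouped by role, with gene names in brown for the ATF4 arm, blue for the chaperone arm and green for the sensors. Red is higher and blue lower than control, colours stop at 2 in either direction, and grey marks a missing value. TRIB3, DDIT3, CEBPB, SLC38A2 and DNAJB9 are above 0 in all 9 pairs and SLC7A5 is below 0 in all 9, while the dark cells of GARS and HSPA5 in SM30 are single pairs.

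AS30 particles, measured at the same 3 h, gave 4 rises and 1 fall. DDIT3 was 2.60-fold its control, CEBPB 2.02-fold, SLC38A2 1.69-fold and DNAJB9 1.64-fold, and SLC7A5 fell to 0.623 of its control. These 5 of 37 genes (13.5%) passed the test, against 2.62% of the 20967 genes tested (1.61% higher and 1.01% lower), and 15 of the 37 had an unadjusted p under 0.05, against 25.1% of all genes.

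DDIT3 read 5.89, 7.17 and 7.22 in the controls and 7.72, 8.48 and 8.21 after AS30. The groups did not overlap, although control A lay well under the others, and the log2 ratio was 1.38 (SE 0.29, adjusted p = 0.049). CEBPB read 14.47, 14.87 and 15.39 in the controls and 15.80, 16.10 and 15.86 after AS30, with a log2 ratio of 1.01 (SE 0.19, adjusted p = 0.040). Its ratio in pair C, 0.47, was the lowest of the 3. SLC38A2 read 12.63, 13.11 and 12.57 in the controls and 13.38, 13.83 and 13.37 after AS30, a log2 ratio of 0.76 (SE 0.13, adjusted p = 0.028) that was nearly the same in every pair. Its second probe did not pass.

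DNAJB9 read 10.58, 10.75 and 10.17 in the controls and 11.13, 11.52 and 11.00 after AS30, with a log2 ratio of 0.72 (SE 0.15, adjusted p = 0.049). SLC7A5 read 15.19, 15.35 and 15.33 in the controls and 14.47, 14.49 and 14.86 after AS30, with a log2 ratio of -0.68 (SE 0.13, adjusted p = 0.038). For both genes the exposed and control arrays did not overlap.

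Further stress genes had higher values that missed the threshold. TRIB3 read 14.98, 15.47 and 15.72 in the controls and 16.10, 16.60 and 16.24 after AS30, with a log2 ratio of 0.92 (SE 0.21, adjusted p = 0.061). PPP1R15A was at 0.91 (adjusted p = 0.12), with 0.35 in pair C and over 1 in the other pairs. HERPUD1 was at 0.76 (adjusted p = 0.084) with no overlap. The hypoxia and stress gene DDIT4 was at 0.68 (adjusted p = 0.078), and CHAC1, which degrades glutathione, was at 0.46. Lower values that missed it were PSAT1 at -0.63 (adjusted p = 0.062) and SLC7A1, the cationic amino acid transporter, at -0.42. ATF4 was at 0.02 (95% interval -0.21 to 0.26). The 6 tRNA synthetases lay between -0.30 and 0.26. The 3 sensors lay between 0.36 and 0.45 with 0 passing, and BiP was at -0.16.

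**Figure D2:**
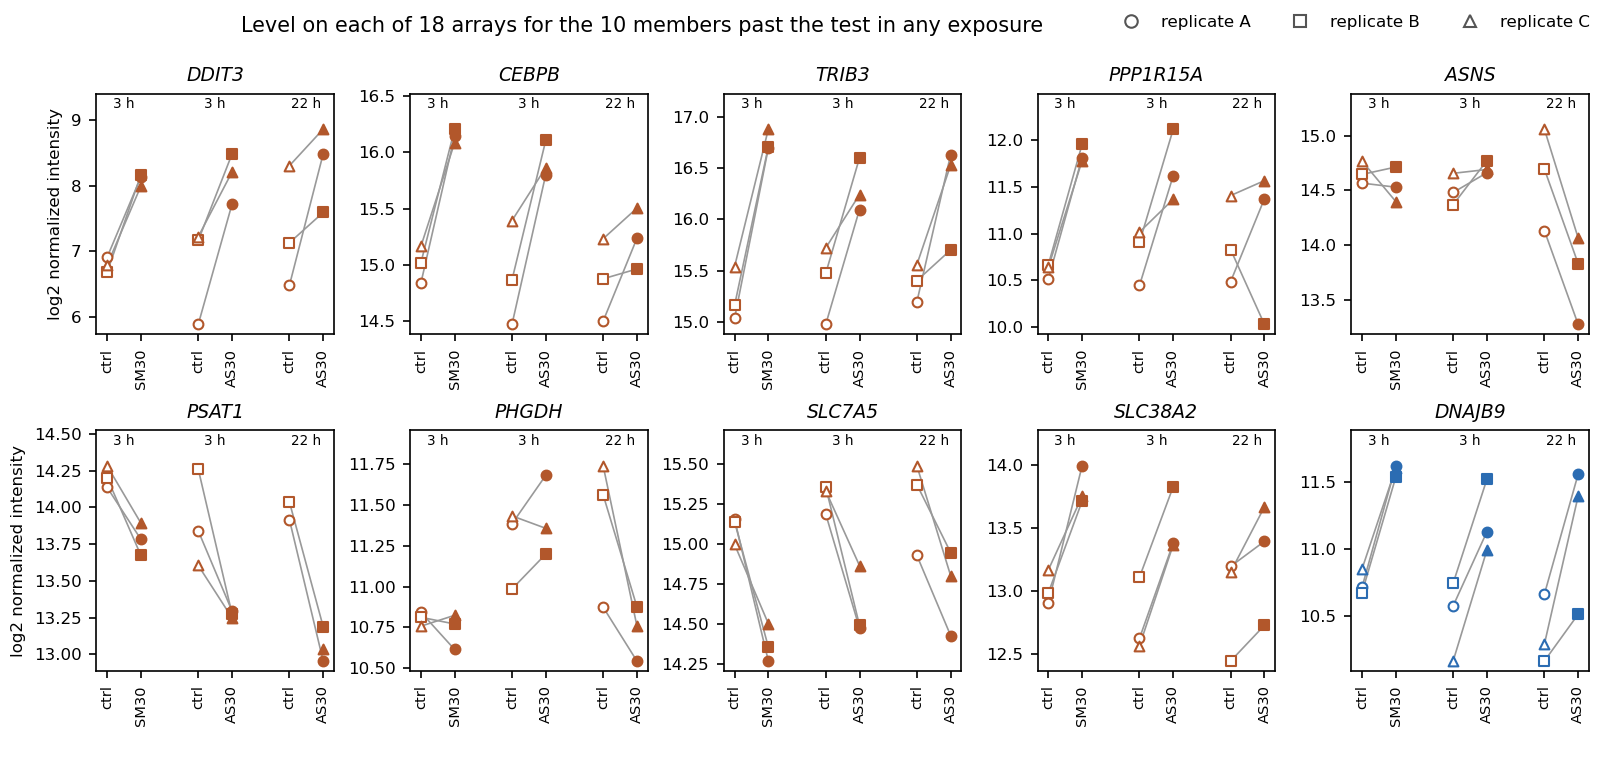
Log2 normalized intensity on each of the 18 arrays for the 10 genes that passed the test in any exposure. Open symbols are control arrays, filled symbols exposed arrays, lines join arrays of the same letter, and brown marks the ATF4 arm and blue the chaperone arm. At 3 h the exposed arrays of DDIT3, CEBPB, TRIB3, PPP1R15A, SLC38A2 and DNAJB9 lie above all of their controls, and at 22 h ASNS and PSAT1 lie below all of theirs.

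At 22 h after AS30 the genes that passed were 3 biosynthetic genes, which fell, and DNAJB9, which rose. ASNS, asparagine synthetase, fell to 0.534 of its control, PSAT1 to 0.534 and PHGDH to 0.631, the latter pair being enzymes of serine synthesis. DNAJB9 was at 1.72-fold. These 4 of 37 genes (10.8%) passed, against 3.84% of the 20666 genes tested (2.72% higher and 1.11% lower), and 13 of the 37 had an unadjusted p under 0.05, against 23.7% of all genes.

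ASNS read 14.13, 14.69 and 15.06 in the controls and 13.28, 13.83 and 14.06 at 22 h after AS30. Every exposed array lay below every control, and the log2 ratio was -0.90 (SE 0.13, adjusted p = 0.018), close to the same in each pair. Its second probe, for another transcript, was at -0.51. PSAT1 read 13.92 and 14.04 in controls A and B, had no value in control C, and read 12.95, 13.19 and 13.04 after AS30. Its log2 ratio of -0.90 (SE 0.17, adjusted p = 0.040) thus came from 2 pairs. PHGDH read 10.87, 11.56 and 11.74 in the controls and 10.54, 10.88 and 10.76 after AS30, so that exposed array B lay just above control A. Its log2 ratio was -0.66 (SE 0.15, adjusted p = 0.048), with -0.33 in pair A and -0.98 in pair C, and it passed under 2 of 13 alternative settings.

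DNAJB9 read 10.66, 10.17 and 10.29 in the controls and 11.56, 10.52 and 11.39 after AS30, with a log2 ratio of 0.78 (SE 0.15, adjusted p = 0.035). Exposed array B lay below control A, but above its own control. More genes of amino acid metabolism were near the threshold on the low side: MTHFD2, the mitochondrial folate enzyme, was at -0.75 (adjusted p = 0.051), CARS at -0.48 (adjusted p = 0.055) and SLC7A5 at -0.54 (adjusted p = 0.057). SLC7A1 was at -0.52 and GARS at -0.64, both below all controls. Of the marker lists, 1 of 4 epithelial genes also passed as higher at 22 h (KRT19, log2 ratio 1.21). So did 1 of 3 leukocyte genes with values (CD68, a lysosomal protein of macrophages and other cells, 1.67). These were the only genes above 0 in their lists. The epithelial list had a median of -0.07 and a lowest value of -1.46, with 0 genes passing as lower. The leukocyte list had a median of -0.02 and a lowest value of -0.25. The part of these markers in the results was not tested.

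The regulators that rose at 3 h had uneven ratios at 22 h. TRIB3 read 15.20, 15.40 and 15.56 in the controls and 16.63, 15.70 and 16.53 after AS30, with a log2 ratio of 0.90 (adjusted p = 0.057). DDIT3 read 6.48, 7.13 and 8.30 in the controls and 8.48, 7.59 and 8.86 after AS30, so that the groups overlapped. Its log2 ratio was 1.01 (adjusted p = 0.090), with 2.00 in pair A against 0.46 and 0.56. CEBPB was at 0.36, PPP1R15A at 0.08 with -0.80 in pair B, SLC38A2 at 0.33 and ATF4 at -0.07. Of the chaperone arm, DNAJC3 was at 0.50, HSPA5 and HSP90B1 both at 0.22, HERPUD1 at 0.17 and XBP1 at -0.19.

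The arms were also set side by side by their medians. The ATF4 arm had a median log2 ratio of -0.07 in SM30, 0.02 in AS30 at 3 h and -0.09 in AS30 at 22 h, and over all genes the medians were -0.07, 0.02 and -0.01. The chaperone arm had medians of 0.19, 0.10 and 0.20. Its pair medians ran from -0.10 to 0.43 in SM30, from -0.01 to 0.10 in AS30 at 3 h and from -0.09 to 0.41 at 22 h. Those of the ATF4 arm ran from -0.09 to 0.04, from -0.04 to 0.17 and from -0.23 to -0.03. Within pairs, the chaperone arm median was above that of the ATF4 arm in 2 of 3 pairs in SM30, in 1 of 3 in AS30 at 3 h and in 3 of 3 at 22 h, where the medians were 0.18 against -0.03 in pair A, -0.09 against -0.20 in pair B and 0.41 against -0.23 in pair C. No test of the arms was made, since the genes of an arm are not replicates.

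The ATF4 arm median hid roles that lay apart. Its transcription factors had medians of 0.40, 0.34 and -0.07 in the 3 exposures in the same order, and its feedback and stress effectors 0.56, 0.80 and 0.11. The synthesis genes were at -0.12, -0.14 and -0.71, the transporters at -0.30, -0.28 and -0.40, and the tRNA synthetases at 0.05, -0.14 and -0.16. In the chaperone arm the folding genes were at -0.02, -0.09 and 0.22 and the degradation genes at 0.26, 0.24 and 0.17. Over all 9 pairs and by the brightest probes, 6 genes were higher in every pair with a value (DDIT3, CEBPB, TRIB3, SLC38A2, DNAJB9 and, by the probe for another transcript, ERN1). Another 5 were lower in every one (SLC7A5, SLC3A2, SLC7A1, PSAT1 and NARS, the last 2 with 8 pairs). For SLC7A1 a second probe had mean ratios above 0 in both exposures at 3 h. How many of all genes keep the same direction in every pair was not counted. DNAJB9 was the member that passed in all 3 exposures. Of the 10 genes that passed in any exposure, ASNS alone held the C/EBP-ATF response element in the promoter window and 0 held the ER stress element. A gene without a match may hold an element outside that window or with other letters. XBP1, HSPA5 and HSP90B1, with the ER stress element printed above, passed in 0 exposures.

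**Figure D3:**
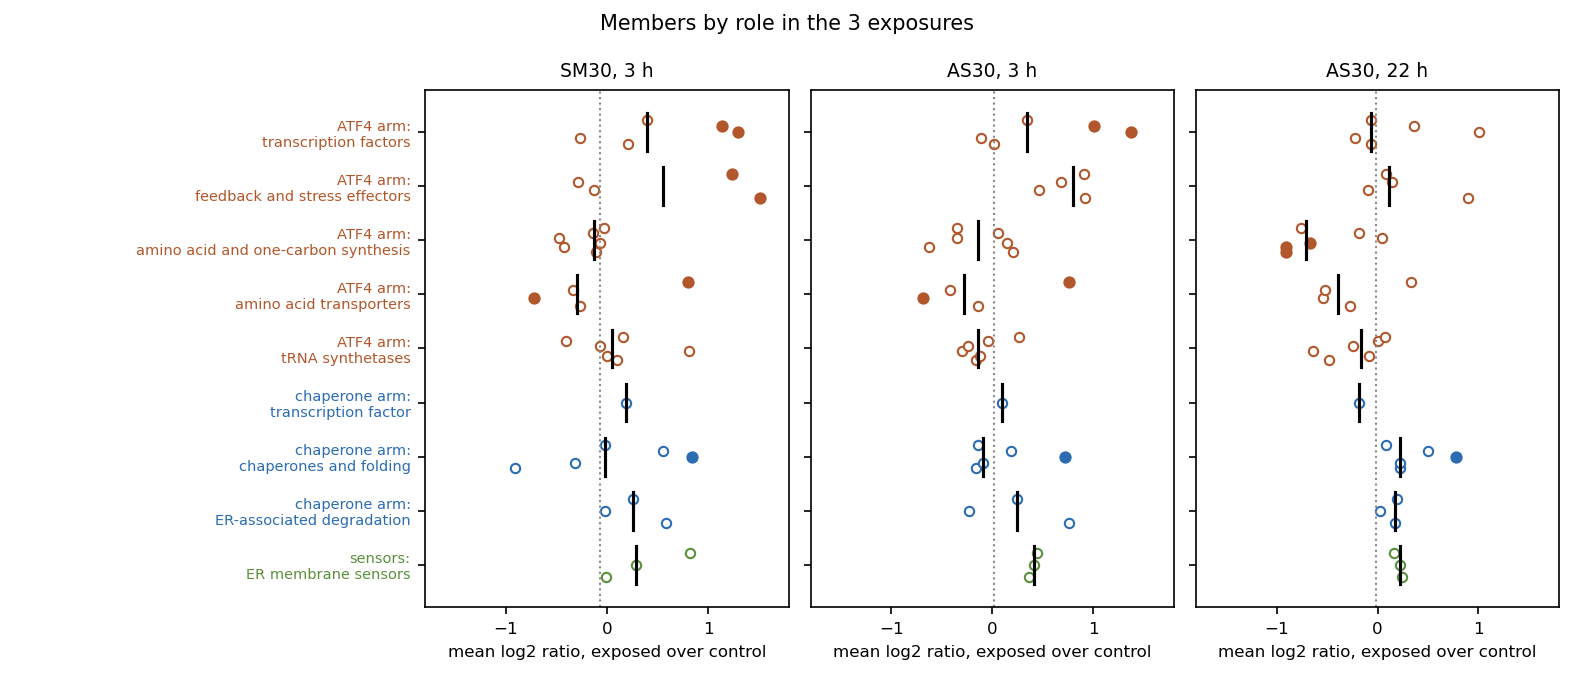
Mean log2 ratio of each gene (points) by role and exposure, with brown for the ATF4 arm, blue for the chaperone arm and green for the sensors. Filled points passed the test, black bars are role medians and the dotted line is the median of all genes. Stress effectors lie at a median of 0.56 and 0.80 in the 3 h exposures, and synthesis genes at -0.71 at 22 h.

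The difference between the 2 particle sizes was tested at the matched recovery of 3 h by subtracting the AS30 ratio from the SM30 ratio on the log2 scale. For 0 of 37 genes did it pass, against 0.0143% of the genes tested, and 2 of the 37 had an unadjusted p under 0.05 in limma, against 15.4% of all genes. GARS had the largest difference, 1.12 (95% interval -0.01 to 2.25), which rested on SM30 pair B. DDIT4 had the lowest adjusted p. It read 13.19, 13.13 and 13.10 in the SM30 controls and 12.95, 12.86 and 12.74 after SM30, and 12.91, 12.82 and 13.62 in the AS30 controls and 13.91, 13.49 and 13.98 after AS30. It was thus lower in SM30 and higher in AS30 cells, a difference of -0.97 (95% interval -1.54 to -0.40, adjusted p = 0.23). CHAC1 differed by -0.59 (95% interval -1.11 to -0.07, adjusted p = 0.30). TRIB3 was higher in SM30 by 0.59 (95% interval -0.09 to 1.28). The intervals of DDIT3 (-1.0 to 0.85), CEBPB (-0.50 to 0.75) and DNAJB9 (-0.36 to 0.60) left room for differences in either direction, and the SM30 and AS30 arrays shared no slide.

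The 22 h and 3 h ratios of AS30 were compared in the same way. For 0 of 37 genes did the difference pass, against 0.0388% of the genes tested, and 6 of the 37 had an unadjusted p under 0.05 in limma, a share below the 18.2% of all genes. ASNS had the largest difference by its brightest probe, -1.11 (SE 0.18, 95% interval -1.51 to -0.71, adjusted p = 0.083): its ratio was 0.21 at 3 h and -0.90 at 22 h. The second ASNS probe, for another transcript, differed by only -0.24 (adjusted p = 0.77). It was at -0.27 at 3 h, the opposite sign, and at -0.51 at 22 h. PHGDH differed by -0.81 (95% interval -1.28 to -0.34, adjusted p = 0.15), CEBPB by -0.65, CHAC1 by -0.55, SLC38A2 by -0.43 and CEBPG by -0.41. DNAJB9 differed by 0.06 (95% interval -0.42 to 0.55). Both differences used the AS30 arrays at 3 h and so were not independent of each other. Over the 37 genes the median 95% interval reached 0.48 to either side of the particle difference and 0.52 to either side of the time difference.

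**Figure D4:**
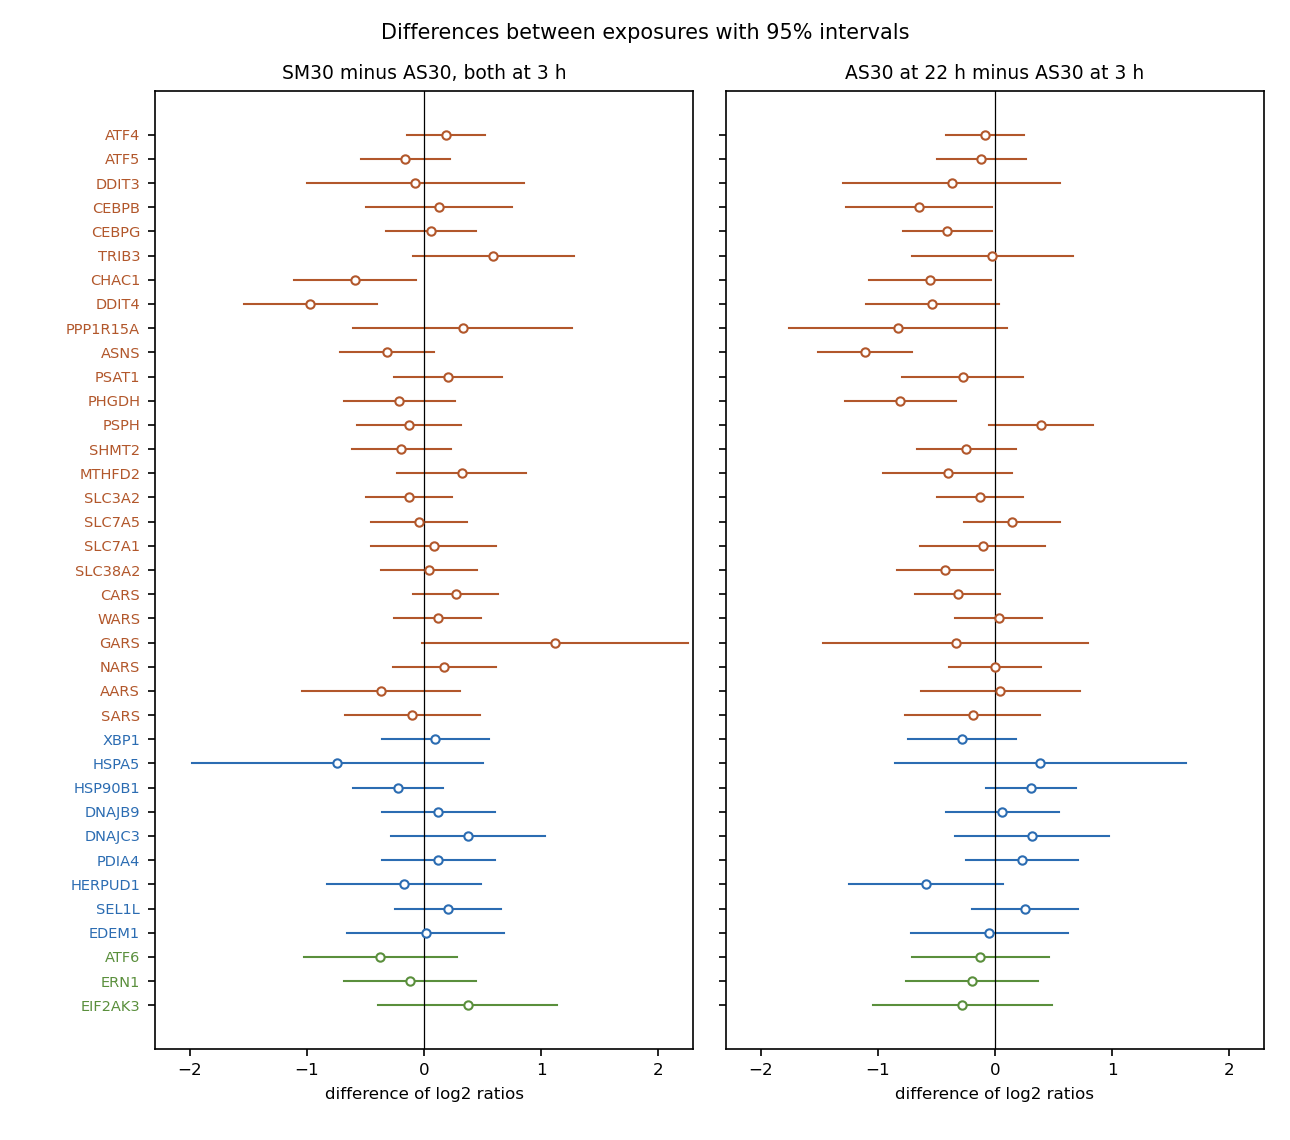
Difference of log2 ratios for each gene, SM30 minus AS30 at 3 h (left) and AS30 at 22 h minus 3 h (right), with 95% intervals as lines and gene names coloured by arm as before. The intervals of DDIT4 on the left and of ASNS and PHGDH on the right lie farthest from 0, and 0 of 37 genes passed on either side.

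The AS30 control cultures themselves were compared between 22 h and 3 h in a fit of all 18 arrays. In that fit 0 of 37 genes passed, against 1.35% of the genes tested, with 5 of 37 at an unadjusted p under 0.05 in limma, against 15.1% of all genes. DDIT4 was 0.68 higher in the 22 h controls (adjusted p = 0.12), AARS 0.60 higher, and EIF2AK3 was at -0.75 (adjusted p = 0.27). ASNS differed between the control groups by 0.13 (95% interval -0.33 to 0.59) and DDIT3 by 0.55 (95% interval -0.39 to 1.48). Without control C of the 3 h series 3 genes passed, a count of members that is not set beside the share of all genes.

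These calls rested on few arrays. With slide as a fixed block in a fit of all 18 arrays 0 of the 7 SM30 genes and 0 of the 5 AS30 genes at 3 h passed. At 22 h ASNS passed (-1.34, adjusted p = 0.032). PSAT1 passed in that fit too, at -0.86, but its value was not adjusted for slide. Since control C had no PSAT1 value, no control shared a slide with the exposed arrays. The value is their mean less control A on another slide. In that fit TRIB3 was at 1.45 (adjusted p = 0.094), DDIT3 at 1.34 and CEBPB at 1.14 in SM30. In AS30 at 3 h DDIT3 was at 0.73, CEBPB at 0.64 and DNAJB9 at 1.21. The exposed and control arrays of that 3 h series shared no slide. Only controls A and B of the 22 h series, 1 on each of these slides, linked them. The slide adjustment of the AS30 values at 3 h is thus the difference between those controls. On the slide that SM30 replicate A shared with its 3 controls, the log2 differences were TRIB3 1.45, DDIT3 1.34, CEBPB 1.14, PPP1R15A 1.20, SLC38A2 0.97, DNAJB9 0.87 and SLC7A5 -0.83. On the slide of the AS30 arrays at 22 h and control C they were ASNS -1.34, PHGDH -1.01 and DNAJB9 0.86, and also DDIT3 0.01. Each of these within-slide values has 1 array on one side and no test of its own. By the layout of the slides they equal the values of the block fit. They are thus the same estimates shown again and not a further check.

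Leaving out any 1 of the 9 pairs kept the direction of every one of these calls, but not its side of the threshold. Without SM30 pair A or pair B 0 members passed in SM30, and without pair C 2 did. In AS30 at 3 h 0 passed without pair A or pair B, and 9 without pair C, while in AS30 at 22 h 0 passed without pair A or pair C. Since all pairs share the estimate of the spread, pairs of other exposures mattered as well: in AS30 at 3 h 0 members passed without SM30 pair B, and 1 without SM30 pair A, SM30 pair C or the 22 h pair C. At 22 h, 1 passed without any 1 of the SM30 pairs or AS30 3 h pair A, and 7 without AS30 3 h pair C. These counts are of members only and are not set beside the share of all genes called in the same fit.

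Probes of some genes differed. The array held 3 ERN1 probes. The brightest, used above, was designed for NM_152461 and lies at hg18 chr17:59560092-59560151 on the minus strand, whereas the probe for NM_001433, the IRE1 transcript, lies at chr17:59474819-59474878. The ERN1 values above therefore describe the locus as the array names it and not with certainty the IRE1 transcript. The NM_001433 probe was at 0.49 in SM30, 0.83 in AS30 at 3 h and -0.16 at 22 h, passing in 0 exposures. The remaining ERN1 probe was at -1.90 in AS30 at 3 h (adjusted p = 0.14), against 0.41 by the brightest. Another PSPH probe, at 1.04, differed in sign from the brightest in AS30 at 3 h. The second SLC7A1 probe was at 0.05 in SM30, 0.34 in AS30 at 3 h and -1.46 at 22 h. Its brightest probe was at -0.33, -0.42 and -0.52. The second SLC7A5 probe passed in 0 exposures, and in AS30 at 3 h it was at -0.21 (adjusted p = 0.89). The second SLC38A2 probe passed in SM30 alone. At 22 h the second HSPA5 probe was at 0.60 (adjusted p = 0.10), against 0.22 by the brightest. In SM30 the second HSP90B1 probe was at 0.13 (adjusted p = 0.70), against -0.31 by the brightest.

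Wider lists of the same pathways were counted in the same way. Of 33 other ATF4 targets 31 could be tested, of which 4 rose and 0 fell in SM30, 1 rose and 0 fell in AS30 at 3 h, and 1 rose and 1 fell at 22 h, where over all genes 7.67%, 2.62% and 3.84% were called. Their median log2 ratios were -0.05, -0.11 and -0.29, and 14, 11 and 8 of the 31 were above 0. KLHL24, a Kelch adaptor, passed in all 3 exposures at 2.20, 1.95 and 1.99. In SM30 SESN2, a stress-induced inhibitor of mTORC1 signalling, was at 1.41 (adjusted p = 0.0080), the second largest of the 4 rises. At 22 h SLC1A4, a neutral amino acid transporter, was at -0.61 (adjusted p = 0.032). Of 33 other ER folding and degradation genes 31 could be tested. WFS1, an ER membrane protein, fell in SM30 by 0.63 on the log2 scale (adjusted p = 0.040), and 0 passed in AS30 at either time. Of the 31, 14 were above 0 in SM30, 14 in AS30 at 3 h and 27 at 22 h, where the list's median was 0.15. Over all genes 41.4%, 51.8% and 48.4% were above 0. The 3 other eIF2alpha kinases, eIF2alpha itself (EIF2S1) and the phosphatase subunit PPP1R15B had 0 calls in all 3 exposures, at medians of -0.06, -0.11 and -0.02.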

How the data were processed

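RNA from 18 cultures was hybridized to one-colour Agilent whole-genome arrays. The authors deposited scanner intensities per spot made with Agilent Feature Extraction 10.5.1.1, with probe positions on hg18 per the file headers, and a table of quantile-normalized values, here recognized as linear intensities by their match to the scanner values and used as an alternative, in which 0 columns were left unused. Following the study's methods, log2 processed signals were quantile normalized, spots not significantly above background were set missing, replicate spots were averaged, and probes with over 33% missing values were removed. Spots marked as outliers, on which the methods are silent, were dropped too. Ratios were taken between exposed and control arrays that share a letter, and the 9 log2 ratios were fitted with limma 3.58.1 in R 4.3.3 (6 residual degrees of freedom, Benjamini-Hochberg adjustment over all probes). The study's letters name replicates, and whether they mark separate passages or days is not given in the sources used here, so p-values measure the spread between these samples. The precision is limited by the number of arrays. Genes called, or among the 3 largest ratios of an exposure, are given per array, and in the wider lists at most the 2 largest rises and falls per comparison are named. The members, lists and tests were chosen with earlier results of these data known. Alternatives were 75th-percentile scaling, normexp background (offset 50), no filter, probes detected on all 18 arrays, outlier spots kept, the deposited table, no pairing, slide as a block, the mean of a gene's probes (those measured on both arrays of a pair) and leaving out each pair. The fits were tested on simulated data. Promoter sequences are from RefSeq (GRCh38.p14). A further marker gene is not reported here.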

Additional observations from a re-analysis of the deposited data

How the results depend on the processing

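The number of members past the threshold depended on the fit. The counts in SM30, AS30 at 3 h and AS30 at 22 h were 7, 5 and 4. Slide as a fixed block gave 0, 0 and 2, and the 2 include PSAT1, whose value that fit could not adjust for slide. Slide as a random block gave 12 in AS30 at 3 h. Its estimated correlation between arrays of a slide was -0.083, below 0, so that fit allowed for no likeness within slides. Without the pairing by letter (no replicate block) the counts were 5, 4 and 4, and 0 for both differences between exposures. Normexp correction, the restriction to probes detected on all 18 arrays and the mean of a gene's probes each gave 7 at 22 h. No filter gave 1 in AS30 at each time, and outlier spots kept gave 3 in AS30 at 3 h. With 75th-percentile scaling the AS30 calls at 3 h split as 4 higher and 0 lower, against 4 and 1. Leaving out 1 pair in turn gave 0 to 8 members in SM30, 0 to 9 in AS30 at 3 h and 0 to 7 at 22 h, 0 to 1 for the 22 h minus 3 h difference, and leaving out 1 control array gave 0 to 3 for the controls. The control comparison with the letter as a replicate block also gave 0. All counts under alternatives are of members only, without the share of all genes called under the same setting.

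The median of the ATF4 arm in AS30 at 3 h (0.02) was 0.15 with 75th-percentile scaling and -0.12 with slide as a fixed block, and its leave-one-out values ran from -0.016 to 0.19. At 22 h (-0.09) it was -0.31 with the slide block and -0.27 within 1 slide, and leave-one-out values ran from -0.22 to -0.083. In SM30 (-0.07) they ran from -0.081 to 0.013. The chaperone arm median in AS30 at 3 h (0.10) was 0.19 with 75th-percentile scaling and 0.17 with the mean of probes. Its SM30 and 22 h medians (0.19 and 0.20) moved by less than the spread between pairs. With slide as a fixed block they were 0.03 and 0.10, the values of EDEM1. The ATF4 arm median in SM30 was -0.11 in that fit, the value of SARS. The cause of these shifts was not tested.

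For the 10 genes past the test in any exposure, 16 ratios were called, and 0 of the 16 kept the call under every alternative: of their 207 values under alternatives 86 (41.5%) lost it. Of 180 values of the ratios not called, 17 gained a call. In 0 cases did a called ratio change sign. Values moved too. DDIT3 was at 0.56 in SM30 and 0.51 in AS30 at 3 h with normexp correction. SLC7A5 was at -1.46 in SM30 and -0.44 in AS30 at 3 h by the mean of probes. With the slide block SLC7A5 was at -1.12 and SLC38A2 at 1.51 in AS30 at 3 h. That adjustment for slide rested on controls A and B of the 22 h series alone. At 22 h, over all alternatives, DDIT3 ran from 0.0089 to 1.28, CEBPB from 0.0023 to 0.50, PPP1R15A from -0.42 to 0.52, ASNS from -1.34 to -0.77 and PHGDH from -1.01 to -0.46, the lower end of each coming from the slide block. Arrays of the same letter deviated from their group means with correlations of 0.09, 0.00 and -0.02 in SM30 (A, B and C), 0.45, -0.09 and 0.08 in AS30 at 3 h and 0.10, 0.09 and 0.20 at 22 h, so the letters were not shown to pair the cultures.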
